A study of Homo sapiens with 13 samples.

Results

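The abundance of mRNAs was compared between MDA-MB-231 cells treated for 2 h with 25 nM Silvestrol and cells given DMSO, its vehicle, for 2 h. A gene name of the deposited table entered when it had at least 100 mRNA reads summed over both libraries and when the length over which its reads were counted (reads over RPKM, reads per kilobase counted, scaled to library size) matched between the libraries within 1.5 times after scaling. These limits kept 12428 of 24875 names, or 50.0%, transcripts without a coding sequence included, and they held 98.0% of the counted reads of each library. MDA-MB-231 is an established mesenchymal, triple-negative breast cancer line, and the study used it to measure what inhibition of the RNA helicase eIF4A does to translation. Ribosome footprints (RFs, the mRNA fragments protected by ribosomes) were sequenced beside the mRNA. Both mRNA libraries came from cells at passage 3, as did RF libraries of DMSO and 25 nM Silvestrol at 1 h and 2 h and of untreated cells, and a second pair of RF libraries at 2 h came from passage 4. The control mRNA library is titled as DMSO for 2 h while its treatment label calls it untreated, and the treatment label of the passage 3 Silvestrol RF library at 2 h gives 1 h; both were placed by their titles. A separate experiment of the series measured total RNA after 2 h of 200 nM INK128, an inhibitor of the mTOR kinase, against DMSO.

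Silvestrol, a plant-derived rocaglate, clamps eIF4A onto RNA, and eIF4A unwinds mRNA for the small ribosomal subunit as the helicase of the cap-binding complex eIF4F. The amount of an mRNA is set by its synthesis and its decay. Immediate early genes and cytokine genes make mRNAs that are normally short-lived, many of them carrying AU-rich elements in the 3′ UTR that recruit decay factors, and these mRNAs are known to build up when translation is blocked with drugs such as cycloheximide, a response called superinduction.

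After Silvestrol, mRNAs of immediate early transcription factors (EGR1, FOS, FOSB, NR4A2, ATF3, JUN) and of cytokines (CXCL2, CXCL3, IL1A, IL8, IL6) stood 2.7- to 12.5-fold above DMSO, and mRNAs of hypoxia genes (CA9, EGLN3, PGK1) and of part of the ribosomal proteins stood past 2-fold below it. Many zinc finger mRNAs were also higher, and the change of an mRNA ran with its GC content. There was 1 mRNA library per side, so no difference between the libraries has a replicate check and none was tested. An mRNA was counted as raised or lowered when its RPKM ratio, centred on the median member (a shift of 0.04 on the log2 scale), passed 2-fold, and the 95% intervals are exact binomial (Clopper-Pearson) intervals of the read ratio that cover counting error only.

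The DMSO mRNA library held 50315607 counted reads and the Silvestrol mRNA library 24792922, and the RF libraries at 2 h held from 2652423 to 26176257. The mesenchymal markers were abundant, with VIM (vimentin) at 1461 RPKM in DMSO and 1425 RPKM in Silvestrol and CD44 at 150 and 141 RPKM, while ZEB1 stood at 7.46 and 15.1 RPKM. ESR1 (estrogen receptor) had 0 reads in both libraries, which allows no more than 3 reads in either, and PGR, KRT5 and FOXA1 had at most 3 reads. Of the markers listed as low in this line, ERBB2 (25.8 and 18.7 RPKM), EPCAM (4.20 and 6.47 RPKM) and GATA3 (2.70 and 7.01 RPKM) were measured above that level. Among markers of other cells, CD3E had 0 reads, ALB had 0 and 2, CDH5 had 1 and 1, PTPRC had 12 and 9, and PECAM1 stood at 0.863 and 0.826 RPKM.

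Of the 12428 members, 554 (4.46%) were raised and 322 (2.59%) were lowered past 2-fold. The counting interval lay wholly past 2-fold for 282 and 149 of them. The changes had an SD of 0.61 on the log2 scale, with 5% of members below -0.85 and 5% above 0.97. Members with 100 to 300 reads spread more (SD 0.75, n = 1386) than those with 3000 reads or more (SD 0.52, n = 5831). Raised mRNAs with a single table entry were of low abundance, with a median of 2.78 RPKM in DMSO against 10.2 RPKM for those within 2-fold and 13.9 RPKM for the lowered ones. At the limits of the rule, B3GAT3 (counted lengths 1.499 times apart) entered and KRT18 (1.501 times) did not, and 8 names had exactly 100 reads against 9 with 99.

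A total of 142 members stood in the table under 2 or more transcript entries, and their changes were kept apart. MYC shows the pattern. The entry under this name with a non-coding accession, which the rule took because it had more reads, held 1117 reads in DMSO and 16961 in Silvestrol. Its log2 change was 4.54, while the entry with a coding accession held 12522 and 634 reads. For MYC the counted lengths matched within 1.04 times across the entries and within 1.28 times inside an entry. The change of 4.54 therefore need not be that of 1 transcript. With the RPKM of both entries summed, whatever transcripts they hold, the name MYC stood 1.28 higher on the log2 scale. DNAJB6, a co-chaperone, moved from -4.96 to -0.01 when its entries were summed and LUC7L, a splicing factor, from -2.96 to 0.21. Among 156 names whose entries could be compared, the counted lengths of the 2 libraries matched better across entries in 99 and within an entry in 57. The 9 lowest and the 3 highest of the named extremes (GPAT2, VDAC1, FAM86B1, KRT8, PRSS3, DNAJB6, ADPGK, LUC7L and C21orf2, then UCHL5, MYC and FMN1) were all of this kind. With entries summed, PRSS3 (-1.55) and GPAT2 (-1.01) were still lowered and MYC and FMN1 (1.102) still raised past 2-fold, while the other 8 lay within it, FAM86B1 (-0.87), KRT8 (-0.81) and UCHL5 (0.78) the farthest out. The remaining 12286 members had a single entry, of which 546 (4.44%) were raised and 298 (2.43%) lowered, and the gene lists below count these alone.

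**Figure D1:**
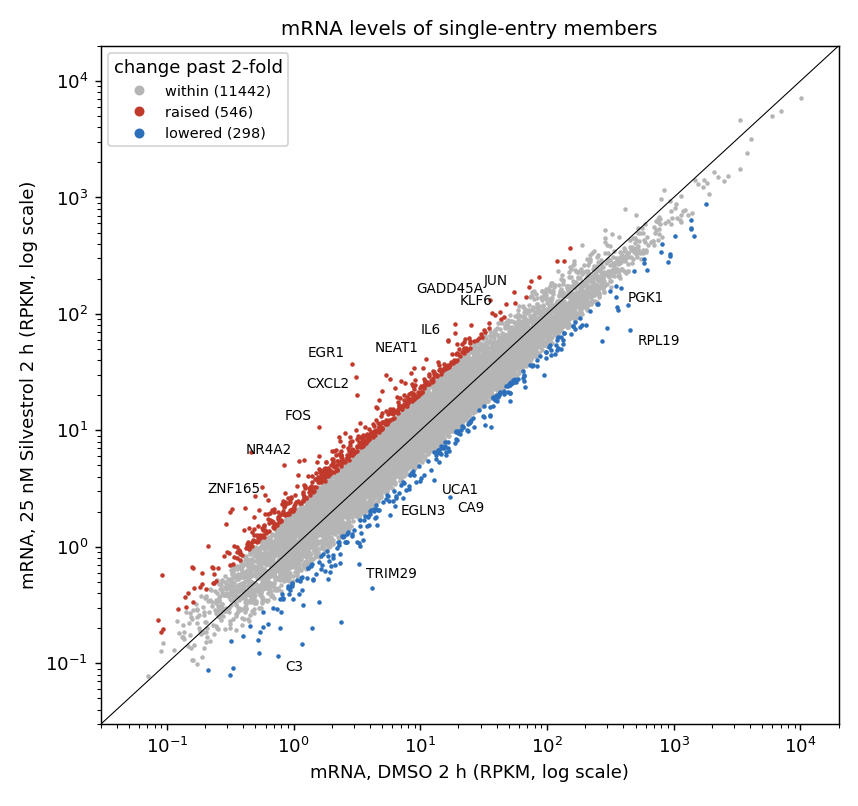
mRNA levels of the 12286 members with a single entry, DMSO on the x axis and 25 nM Silvestrol on the y axis, both in RPKM on a log scale; each point is an mRNA, red and blue points passed 2-fold and the line marks equal levels. EGR1, FOS and CXCL2 lie farthest above the line among the labelled mRNAs, CA9 and RPL19 lie well below it, and most raised mRNAs sit at low levels in DMSO.

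Immediate early genes are transcribed within minutes of a growth or stress signal without new protein synthesis. Of the 25 single-entry members of this list, 9 were raised and none was lowered, and their median change was 0.89 on the log2 scale against 0.00 for all single-entry members. EGR1, a zinc finger transcription factor, stood at 2.89 RPKM in DMSO (572 reads) and 37.2 RPKM in Silvestrol (3702 reads), a log2 change of 3.64 (95% counting interval 3.51 to 3.77). FOS, the founding AP-1 subunit, stood at 1.59 and 10.8 RPKM (217 and 753 reads), a change of 2.71 (2.49 to 2.94). Its relative FOSB stood at 0.326 and 2.13 RPKM, a change of 2.66. The level in Silvestrol was above that in DMSO for both FOS genes by far more than the counting error. The orphan nuclear receptors NR4A3 (0.092 and 0.575 RPKM, 29 and 93 reads) and NR4A2 (1.103 and 5.46 RPKM) had changes of 2.60 and 2.26, at low levels. ATF3, a stress-responsive factor, stood at 8.94 and 34.2 RPKM, a change of 1.89. JUN, the AP-1 partner of FOS, was already abundant in DMSO at 55.4 RPKM and reached 154 RPKM, a change of 1.43, and KLF6 went from 42.6 to 104 RPKM, a change of 1.24. ZFP36, which binds AU-rich elements and promotes decay, stood at 8.69 and 18.5 RPKM, a change of 1.04 (0.91 to 1.17), so its interval includes the 2-fold limit. At the low end of the list BTG2 had a change of -0.47, with 209 and 80 reads.

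The list of cytokines and growth factors had 16 members, of which 9 were raised and none was lowered, with a median change of 1.39. Over the 10 of them with at least 1000 reads the median was 0.84. The neutrophil-attracting chemokine CXCL2 stood at 3.14 RPKM in DMSO and 19.9 RPKM in Silvestrol (198 and 526 reads), a change of 2.62 (2.38 to 2.87). Its neighbours CXCL3 (1.20 and 5.60 RPKM) and CXCL1 (2.56 and 9.56 RPKM) had changes of 2.18 and 1.86. IL8 (CXCL8), of the same chemokine class and more abundant, stood at 18.8 and 68.8 RPKM, a change of 1.83. Every one of these chemokine mRNAs was higher in Silvestrol. IL6, a signal of the acute-phase response, stood at 16.7 and 58.1 RPKM, a change of 1.76 (1.66 to 1.86). IL1A had a change of 2.34 from 0.41 RPKM, IL24 of 1.76 from 3.32 RPKM, and CSF2 of 1.03 from 23.2 RPKM. PTGS2, the inducible cyclooxygenase, stood at 0.404 and 1.40 RPKM, a change of 1.75. CSF1, the macrophage growth factor and an abundant mRNA here, was the lowest of the list at 99.8 and 54.5 RPKM, a change of -0.92.

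The AU-rich stretches of these 3′ UTRs are shown because the pentamer ATTTA is the core of the element that decay factors bind. Each line gives the 30-base window of the 3′ UTR with the most ATTTA, read on the transcript strand in GRCh37 from a GENCODE transcript, with ATTTA in capitals (overlapping copies share a base).
CXCL2 (chr4:74963307-74963336, minus strand): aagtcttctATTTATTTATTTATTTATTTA
IL8 (chr4:74608825-74608854, plus strand): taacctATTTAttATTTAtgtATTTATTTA
IL6 (chr7:22771316-22771345, plus strand): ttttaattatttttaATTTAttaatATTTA
PTGS2 (chr1:186643455-186643484, minus strand): aagtctaatgatcatATTTATTTATTTAta
FOS (chr14:75748750-75748779, plus strand): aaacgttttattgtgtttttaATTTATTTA
EGR1 (chr5:137804740-137804769, plus strand): tctatttttttaactgaaaatgtaaATTTA
The whole 3′ UTR held 10 copies of ATTTA in CXCL2, 9 in IL8, 6 in IL6, 22 in PTGS2, 5 in FOS and 1 in EGR1. EGR1 had the largest change of these 6 and the fewest copies.

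Across all single-entry coding mRNAs with a 3′ UTR (n = 11206), searched on the transcript strand alone, 74.0% held ATTTA and 36.9% held the longer TATTTAT, each copy of which contains an ATTTA. The shares were 90.0% and 52.2% among raised mRNAs and 46.9% and 20.9% among lowered ones. AU-rich letters are tied to base composition, so the same was computed after the trend of the change on transcript GC content (described with the GC values) was removed. Among the 194 coding mRNAs raised past 2-fold after that step the shares were 74.1% and 40.4%, and among the 156 lowered after it they were 74.2% and 43.2%, so the contrast between raised and lowered mRNAs was not seen after the step. The median change of mRNAs with no, 1 and at least 2 copies of TATTTAT was -0.14, 0.13 and 0.32 before the step and -0.03, 0.01 and 0.01 after it. A match is a description of the letters and not of binding.

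Feedback genes of the ERK pathway limit the signal that induces immediate early genes. Of the 17 measured, 2 were raised and 1 was lowered, beside 4.44% and 2.43% of all single-entry members, with a median change of 0.45. The phosphatase DUSP1 stood at 24.5 and 58.9 RPKM, a change of 1.22, and the receptor kinase inhibitor SPRY2 at 34.8 and 82.9 RPKM, a change of 1.21. DUSP2 went the other way with few reads (149 and 28), a change of -1.49 (-2.13 to -0.90). Of 17 NF-kB subunits and feedback genes, TNFAIP3 (A20, an inhibitor of NF-kB) alone passed 2-fold, at 1.74 and 4.64 RPKM, a change of 1.37, and the list's median was 0.10.

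In the lists of stress responses a few mRNAs passed 2-fold, beside 4.44% raised and 2.43% lowered over all single-entry members. In the p53 network, 2 of 20 were raised (median 0.40), GADD45A at 35.7 and 132 RPKM, a change of 1.84, and MDM4, a p53 inhibitor, with a change of 1.15. Among 18 genes of the integrated stress response, 3 were raised (median 0.34). DDIT3 (CHOP) stood at 39.1 and 98.1 RPKM, a change of 1.28, the cystine transporter SLC7A11 had a change of 1.29 and CEBPG of 1.01. Of 18 genes of the ER unfolded protein response, 2 were raised (median 0.35), with the co-chaperone DNAJB9 at 8.46 and 31.1 RPKM, a change of 1.83. None of 12 heat shock genes passed 2-fold in either direction (median 0.06). Of 13 clock genes, 3 were raised (median 0.47), namely BHLHE40 (1.44), NR1D1 (1.30) and PER1 (1.18), all of them transcriptional repressors. Of 19 cholesterol synthesis genes, HMGCS1 (1.34) and IDI1 (1.32) were raised, and the median was 0.02.

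The list of hypoxia genes had 16 members, with 4 lowered, none raised and a median of -0.32. CA9, a cell surface carbonic anhydrase induced by HIF1, stood at 17.3 RPKM in DMSO (1649 reads) and 2.65 RPKM in Silvestrol (134 reads), a log2 change of -2.75 (-3.01 to -2.49), the lowest among single-entry mRNAs with at least 500 reads and an interval past 2-fold. PGK1, a glycolytic kinase, stood at 381 and 169 RPKM, a change of -1.22. EGLN3, a prolyl hydroxylase that marks HIF for decay, stood at 6.08 and 2.50 RPKM, a change of -1.33, and BNIP3, a mitophagy receptor, at 83.0 and 40.1 RPKM, a change of -1.09 (-0.88, within 2-fold, when the counts were scaled by TMM). VEGFA, from the same list, stood at 59.7 and 96.4 RPKM, a change of 0.65, so the members were not all lower. Outside this list TRIM29 had 627 and 70 reads (3.28 and 0.713 RPKM), a change of -2.25. Of 16 receptor tyrosine kinases 3 were lowered, TYRO3 (-1.12), ERBB3 (-1.03) and FGFR3 (-1.03), with a median of -0.23. Over all single-entry members 2.43% were lowered. TYRO3 stood within 2-fold under TMM (-0.91), and with a pseudocount of 1 RPKM so did TYRO3 (-0.93), ERBB3 (-0.51) and FGFR3 (-0.51). C3, a complement component chosen after its values were seen, had 245 reads in DMSO and 19 in Silvestrol.

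Cytosolic ribosomal protein mRNAs are long-lived and carry a pyrimidine tract at the 5′ end through which mTOR sets their translation. Of the 71 measured, 14 were lowered and 1 was raised, with a median of -0.51. RPL19 stood at 453 and 72.5 RPKM, a change of -2.69, and RPS15A at 273 and 59.0 RPKM, a change of -2.26. RPL5 was the exception, at 71.6 and 172 RPKM, a change of 1.22. The authors left out positions that were not unique, and for many of these genes, which have near-identical pseudogenes, reads were counted over few bases. The counted length, scaled so that the median coding mRNA had the length of its GENCODE transcript, was 139 bases for RPL19, 103 for RPS15A and 226 for RPL5. It ran from 93.3 to 455 bases (median 139) for the 14 lowered mRNAs and from 97.4 to 4508 (median 202) for the 56 within 2-fold, so the ranges overlapped. Of the 19 ribosomal protein mRNAs with at least 400 counted bases 1 was lowered, and their median was -0.51, against 13 of 52 with fewer and a median of -0.54. Over all coding mRNAs with a single entry, the ribosomal protein mRNAs among them, 30 of the 228 with fewer than 400 counted bases were lowered (median -0.48). Of the 11040 with more, 229 were (median 0.00). The part of the counted positions in the single large changes was not tested. The median was -0.22 for 73 mitochondrial ribosomal proteins, -0.35 for 72 subunits of oxidative phosphorylation and -0.26 for 35 proteasome subunits, with 1, 1 and 0 raised and 0, 0 and 1 lowered.

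Zinc finger genes, most of them KRAB repressors of transposable elements, formed the largest list. Of 419 measured, 82 were raised and 0 were lowered, with a median change of 0.61. ZNF165 was highest at 0.627 and 2.52 RPKM, a change of 1.96, and ZNF700 stood at 2.31 and 8.18 RPKM, a change of 1.78. After the GC trend was removed, 26 of 417 were raised, 0 were lowered and the median was 0.41. For 39 histone genes the median was -0.45 before and -0.11 after the step, with none past 2-fold, and part of the histone mRNAs lack a poly(A) tail and are measured poorly in a poly(A)-selected library.

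**Figure D2:**
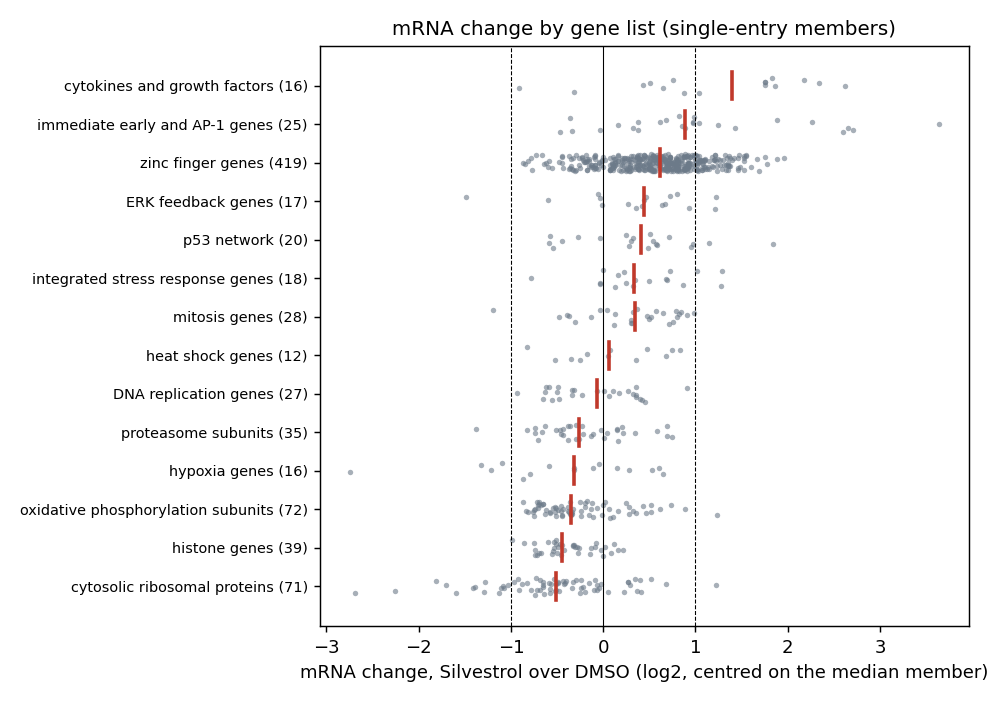
Change of each single-entry mRNA in 14 gene lists (points; numbers of members in parentheses) on the log2 scale, Silvestrol over DMSO, with the list median as a red bar; dashed lines mark 2-fold and the vertical spread of points within a row carries no value. Cytokines (median 1.39) and immediate early genes (median 0.89) lie highest, cytosolic ribosomal proteins (median -0.51) lowest, and most zinc finger mRNAs lie above 0 (median 0.61).

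The change of an mRNA ran with the GC content of its transcript (Spearman correlation -0.63 across 11243 coding mRNAs of the same library pair, which are not independent replicates). It was -0.67 over the 6871 whose counted length, scaled as for the ribosomal proteins, lay within 10% of the length of the transcript that GC content was taken from. In the 1125 mRNAs with the lowest GC content (median 36.8%), the first of 10 groups of like size, the median change was 0.57, with 155 raised and 2 lowered. In the 1125 with the highest (median 64.3%), it was -0.43, with 3 raised and 58 lowered. The median GC content was 39.7% for raised, 48.3% for those within 2-fold and 57.1% for lowered mRNAs, and the lowered ones had the shorter transcripts (median 2358 bases, against 3458.5 for raised). In the other libraries the change ran less with GC content. The correlation was 0.04 for RFs at 2 h of passage 3, 0.13 at passage 4, -0.14 for RFs at 1 h and -0.02 for total RNA after INK128 (n = 9822). Over the same groups the median RF change at 2 h ran from -0.14 to 0.00 at passage 3 and from -0.19 to 0.10 at passage 4, and that of total RNA after INK128 from -0.05 to 0.09. The median RF change at 1 h went from 0.07 in the group of lowest GC content to -0.16 in that of the highest, in the same direction as the mRNA. The correlation of the mRNA change was weaker with transcript length (0.27) and with the DMSO level (-0.36), and these were 0.08 and -0.23 once the GC trend was removed. With 1 library per side a difference between the libraries in how fragments of unlike GC content were recovered and a response to Silvestrol cannot be told apart.

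**Figure D3:**
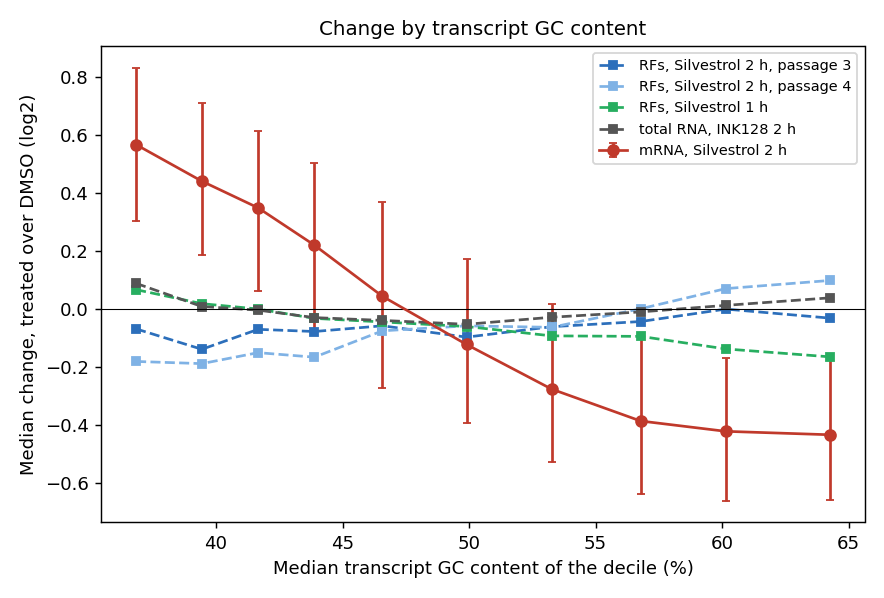
Median change (log2, treated over DMSO) in 10 groups of 11243 coding mRNAs ordered by transcript GC content, plotted at the median GC percent of each; red circles are mRNA with the quartiles as bars, squares are RFs at 2 h (passages 3 and 4), RFs at 1 h and total RNA after INK128. The mRNA median falls from 0.57 to -0.43 while the other lines stay between -0.19 and 0.10.

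When that trend was removed, a step chosen after seeing the data, 212 (1.82%) of 11634 single-entry members were raised and 191 (1.64%) lowered. The immediate early list then had 14 of 25 raised, with a median of 1.03, and the cytokines 9 of 16, with a median of 1.14. EGR1 (3.96), FOS (2.94), CXCL2 (2.45), ATF3 (2.02) and JUN (1.77) stayed past 2-fold, and IL6 (1.46) and IL8 (1.11) did so with smaller changes. SLC7A11 (0.67), CEBPG (0.65), MDM4 (0.84), HMGCS1 (0.88), IDI1 (0.81) and EIF4E (0.77) no longer passed 2-fold. The median of the p53 network went from 0.40 to 0.14 with 1 raised and 1 lowered, that of the integrated stress response from 0.34 to 0.59 with 3 raised and 1 lowered, and that of the unfolded protein response from 0.35 to 0.28 with 1 raised. CA9 (-2.34), PGK1 (-1.50), BNIP3 (-1.42) and EGLN3 (-1.39) stayed lowered, 5 of 16 hypoxia genes were then lowered, and 9 of 71 ribosomal protein mRNAs were. None of the 16 receptor tyrosine kinases was.

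Of 16 genes of eIF4F and its cofactors 1 passed 2-fold, beside 4.44% raised and 2.43% lowered over all single-entry members. EIF4A1, the major target helicase, stood at 47.7 and 46.2 RPKM, a change of -0.09. EIF4E, the cap-binding subunit, stood at 2.06 and 5.72 RPKM from 286 and 393 reads, a change of 1.43, and was the one past 2-fold (list median 0.12). PDCD4, an inhibitor of eIF4A, had a change of 0.85.

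Genes that the study followed for their translation were not lowered in mRNA past 2-fold. The cyclin CCND1 stood at 171 and 233 RPKM, a change of 0.41, and its kinase CDK6 at 8.75 and 11.2 RPKM, a change of 0.31. The anti-apoptotic BCL2 (0.961 and 1.55 RPKM) and the small GTPase ARF6 (58.6 and 86.3 RPKM) had changes of 0.65 and 0.51. CCND2 had a change of 0.53, with 146 and 112 reads. ROCK1, which has 2 entries, had a change of 0.27. The mRNAs of PFN2 (-0.09), CCNE1 (-0.05), CCNB1 (0.20) and ACTB (-0.34) stood close to the median member.

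Among transcripts without a coding sequence, small nucleolar RNAs guide the chemical modification of ribosomal RNA and fall into box C/D and H/ACA classes. Of 94 box C/D entries, 20 were lowered and 2 raised, with a median of -0.44. After the GC trend was removed, 31 of 89 were lowered and 1 raised, with a median of -0.83. SNORD54 stood at 296 and 75.2 RPKM, a change of -2.02, and SNORD99 at 435 and 118 RPKM, a change of -1.92. Of 47 H/ACA entries 9 were raised and 4 lowered, with a median of 0.11. After the GC trend was removed, 6 of 46 were raised and 1 lowered, with a median of 0.19. SNORA53 stood at 3.09 and 28.8 RPKM (49 and 234 reads), a change of 3.17, and SNORA19 had a change of 2.43. Box C/D entries had a median length of 80 bases and H/ACA entries of 135, against sequenced fragments selected between 40 and 100 bases, and the part of that selection was not tested. NEAT1, the long non-coding RNA that scaffolds paraspeckles, stood at 11.1 and 41.3 RPKM (12074 and 22790 reads), a change of 1.85 (1.82 to 1.88). UCA1, another long non-coding RNA, stood at 12.9 and 3.76 RPKM, a change of -1.82. AK025288 stood at 0.463 and 6.58 RPKM (81 and 591 reads), and its change of 3.79 was the highest of the named single-entry transcripts.

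RFs are a separate measure, and at 2 h they had 2 cultures per side. In an edgeR quasi-likelihood fit (p-values adjusted by Benjamini-Hochberg over 11179 names), 670 (5.99%) were lower and 176 (1.57%) higher in Silvestrol, and with passage as a block 2983 (26.7%) and 2671 (23.9%). Of the 408 raised single-entry mRNAs that were tested in RFs, 24 were lower and 5 higher in RFs (107 and 93 with the block), and their median RF change was 0.03. Of the 213 lowered ones, 1 was lower and 3 were higher (20 and 60 with the block), with a median of 0.21 that came from passage 3 (0.39) more than from passage 4 (0.01). Across 10844 single-entry names the mRNA change and the RF change had a Spearman correlation of -0.12.

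Several of the largest mRNA changes did have RFs in the same direction. RFs of EGR1 stood at 10.3 RPKM in DMSO and 64.5 RPKM in Silvestrol at passage 3, and at 1.79 and 54.6 RPKM at passage 4. The fitted change was 3.32 ± 0.76 (SE, n = 2 per side; edgeR adjusted p = 0.0614, and 2.46e-109 with passage as a block). For FOS they stood at 10.7 and 26.4 RPKM and at 3.43 and 22.1 RPKM, a change of 1.86 ± 0.55 (edgeR adjusted p = 0.102, with the block 4.33e-22). Levels in DMSO differed between the passages for both genes, and each passage was higher in Silvestrol. IL6 was closer between passages, at 39.9 and 74.6 RPKM and at 37.4 and 68.2 RPKM, and rose by 1.02 ± 0.19 (edgeR adjusted p = 0.0421). KLF6 (0.94 ± 0.19, edgeR adjusted p = 0.0493) and the splicing regulator PTBP2 (0.93 ± 0.16, edgeR adjusted p = 0.0403), whose mRNA had a change of 1.91, also rose. ATF3 (1.17, adjusted p = 0.0562 by edgeR), ZFP36 (2.05, adjusted p = 0.0554) and CXCL2 (2.01, adjusted p = 0.0988) passed the threshold with the block alone (adjusted p = 1.77e-11, 2.31e-38 and 0.00021).

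Other raised mRNAs had fewer RFs. RFs of SPRY2 stood at 64.3 RPKM in DMSO and 19.95 RPKM in Silvestrol at passage 3 and at 48.3 and 24.0 RPKM at passage 4, a fall of 1.24 ± 0.23 on the log2 scale (edgeR adjusted p = 0.0439) while its mRNA had a change of 1.21. RFs of JUN stood at 195 and 90.0 RPKM and at 116 and 107 RPKM, a change of -0.53 ± 0.28 that passed with the block alone (edgeR adjusted p = 0.283 and 5.52e-06). DDIT3 (-1.02, edgeR adjusted p = 0.0832) and SLC7A11 (-0.87, adjusted p = 0.087) also passed with the block alone (adjusted p = 7.58e-07 and 8.07e-08). RFs also fell for genes whose mRNA stood within 2-fold, among them PDCD4 (-1.85, edgeR adjusted p = 0.0203), CDK6 (-1.70, adjusted p = 0.0214) and CCND1 (-1.30, adjusted p = 0.0241). BCL2 (-2.39, edgeR adjusted p = 0.114) passed with the block alone (adjusted p = 1.89e-05).

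For the 4 lowered mRNAs of the hypoxia list, which are too few to set against the 5.99% of names called lower in RFs, the RF values were these. CA9 had RFs at 3.48 and 3.23 RPKM at passage 3 and at 3.19 and 4.18 RPKM at passage 4, a change of 0.25 ± 0.30 (edgeR adjusted p = 0.633), against its mRNA change of -2.75. PGK1 had a change of 0.50 ± 0.28 in RFs (edgeR adjusted p = 0.292, and 5.13e-06 with the block), in the direction opposite to its mRNA. EGLN3 had a change of -0.85 ± 0.29 (edgeR adjusted p = 0.133, with the block 0.000311). The abundant S100A6, the most abundant mRNA of all at 10200 RPKM in DMSO and 7135 in Silvestrol, rose by 0.95 ± 0.10 in RFs (edgeR adjusted p = 0.0214) and had a change of -0.56 in mRNA.

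**Figure D4:**
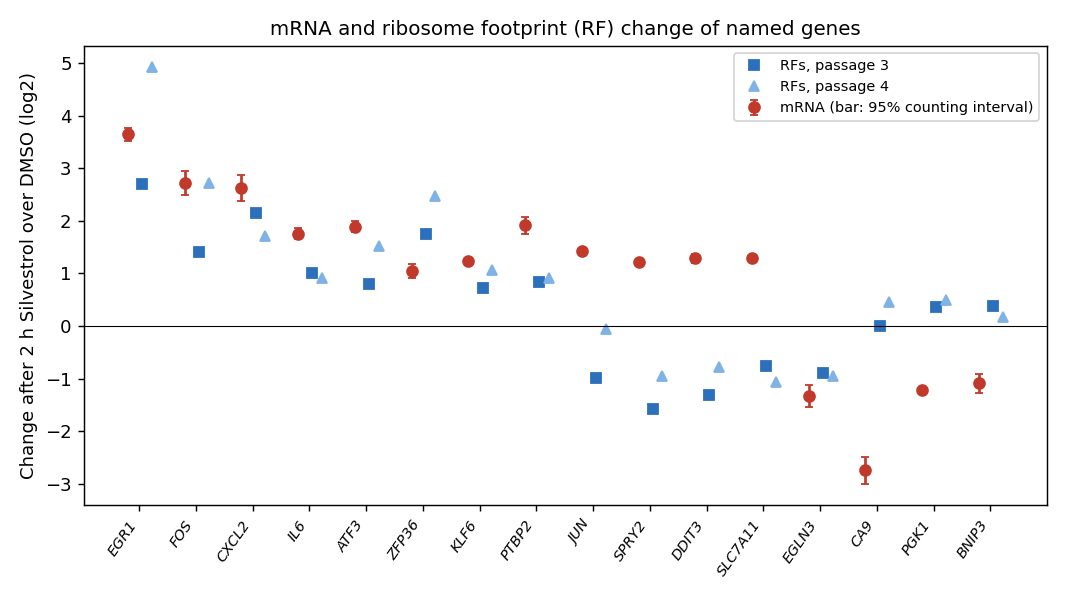
Change after 2 h of Silvestrol over DMSO (log2) for 16 named genes, in mRNA (red circles, bars the 95% counting interval) and in RFs of passage 3 (squares) and passage 4 (triangles). RFs of EGR1, FOS, CXCL2, IL6, ATF3, ZFP36, KLF6 and PTBP2 lie above 0 with the mRNA, those of SPRY2, DDIT3 and SLC7A11 lie below 0 while the mRNA lies above, and those of PGK1 and BNIP3 lie above 0 while the mRNA lies below.

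Total RNA after 2 h of INK128, from a table normalized separately and with 1 library per side, gives the values of the same mRNAs under another inhibitor of the path to translation. Its values were centred on the median of the 10206 members measured there, a shift of -1.17 on the log2 scale. A value above 0 is thus relative to that median and need not be a rise in the deposited FPKM. The median was 0.29 for the immediate early list, 0.44 for the cytokines, 0.38 for the ERK feedback genes, 0.47 for the clock genes, -0.01 for the hypoxia genes, -0.13 for the zinc finger genes and -0.14 for the cytosolic ribosomal proteins. Larger medians were found for the box C/D (1.31) and H/ACA (1.32) entries, a list of long non-coding RNAs (1.23, n = 5) and the histone genes (1.03). Over 59 single-entry non-coding RefSeq entries other than small RNAs the median was -0.06. EGR1 had a change of 0.73, FOS of 1.09, ATF3 of 1.28, IL6 of 1.01 and CXCL2 of 0.80, each above the median member, while JUN (-0.18) and IL1A (-0.66) stood below it. CA9 (0.00) and PGK1 (0.11) stood at the median after INK128. The INK128 libraries are titled as total RNA, while the methods of the study describe poly(A) selection of mRNA. Whether the RNA selection differed between the experiments is not stated, so no difference between the drugs was computed.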

How the data were processed

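RNA of MDA-MB-231 cells was sequenced as poly(A)-selected mRNA fragments and as ribosome footprints (RFs). The labels call the mRNA libraries total RNA, whereas the methods of the study describe poly(A) selection, alkaline fragmentation and selection of fragments between 40 and 100 bases. The authors removed ribosomal reads and mapped the rest to canonical UCSC transcripts of hg19 (GRCh37), with Bowtie in the methods and Bowtie2 (version given as 2) and CASAVA 1.8.1 in the submitters' processing notes, and left out positions that were not unique or lay under more than 1 transcript. The deposited read counts per transcript are raw, and the deposited RPKM values are the authors' counts per kilobase counted, scaled to library size. The total RNA of the INK128 experiment was deposited by the authors as FPKM, and the program is not given in the sources used here. Averages, translation efficiencies, log2 ratios and z-scores computed by the authors were not used, nor were 2 footprint FPKM columns of the INK128 experiment.

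Identical lines were collapsed (38897 lines to 25758 entries), and for each name the entry with most mRNA reads was taken. Of 12544 names with 100 reads, 28 were left out for an RPKM in 1 library only and 88 for unequal counted lengths. The table lists 28 names that a spreadsheet turned into dates, 20 of them members. The change is the log2 RPKM ratio minus its median, with no pseudocount. No test was possible between 1 library and 1 library. RF counts at 2 h were tested with edgeR 4.0.16 (R 4.3.3; TMM, filterByExpr, quasi-likelihood F test, Benjamini-Hochberg threshold 0.05), without a block; DESeq2 1.42.0 and the fit with passage as a block were alternatives. Same-passage libraries deviated together (r = 0.77 over 11179 names), passage numbers coming from the labels. The scripts were tested on simulated data. The labels and the study call the RF libraries of passages 3 and 4 biological replicates, and p-values without the block measure the spread between them. With the block, the passage difference shared by both treatments is removed and 1 residual degree of freedom per name is left. Those p-values lean on variation estimated over all names. The GC trend was a lowess fit (fraction 0.3, statsmodels 0.14.6) on the transcript's GC content, and 94.6% of members matched a GENCODE transcript in GRCh37, which need not be the transcript counted. The counted lengths came out 1.23 times the matched transcript lengths in the median and were used only as ratios or scaled by that factor. Intervals used scipy 1.17.1. Reads carry no molecular identifiers, so intervals and limits cover counting error only.

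Members, gene lists and alternatives were chosen with earlier results of these data known. Named were the 15 highest and 15 lowest changes with 500 or more reads and an interval past 2-fold, the 8 highest and lowest non-coding transcripts, the 10 most abundant, each list's extremes and members past 2-fold, and genes named by the study; list members without a call are named where the text gives a list's other values, and C3, VIM and the other markers, B3GAT3 and KRT18 stand outside that rule.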

Additional observations from a re-analysis of the deposited data

How the results depend on the processing

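The counts of raised and lowered mRNAs (554 and 322) moved past 1.5 times with the read minimum, the pseudocount, the fold limit and the GC step. They were 341 and 148 with a minimum of 1000 reads, 1236 and 831 with none, 228 and 178 with a pseudocount of 1 RPKM, 2114 and 1776 at 1.5-fold, 63 and 49 at 3-fold, 282 and 149 where the whole counting interval had to pass 2-fold, and 216 and 208 after the GC trend was removed, a step added after seeing the data. Scaling by TMM (520 and 264), leaving out the centring (659 and 274), a minimum of 30 reads (731 and 463) and summing the entries of a name (552 and 308, also added) kept them within 1.5 times. Of 278 named changes, 203 left their counting interval when the GC trend was removed, and of 290 named changes 34 did so under TMM. Under TMM, BNIP3 (-0.88), TYRO3 (-0.91) and MCL1 (0.98) no longer passed 2-fold, and with a pseudocount of 1 RPKM neither did 10 of the genes named here, NR4A3 (0.49), PTGS2 (0.74) and DUSP2 (-0.71) moving furthest. LUC7L turned from -2.96 to 0.21 with its entries summed. List medians moved by less than the spread of their members except that of the histones (-0.11 after the GC trend), though many moved past 1.5 times, among them the cytokines to 0.84, the small nucleolar and nuclear RNAs to -0.72 (from -0.31), the BCL2 family to -0.24 (from -0.02) and the eIF4F list to -0.06 (from 0.12) with a minimum of 1000 reads, and the p53 network to 0.14, the integrated stress response to 0.59, the splicing factors to 0.15 (from 0.38), the mRNA decay factors to 0.06, the mitosis genes to 0.22, the cholesterol genes to 0.27 (from 0.02), the NF-kB genes to 0.24 (from 0.10) and the general transcription factors to 0.17 (from 0.31, entries of every kind) after the GC trend. In all, 30 of 41 list medians moved past 1.5 times or changed sign under at least 1 of 3 alternatives (27 after the GC trend, 17 with the minimum of 1000 reads, 2 under TMM), many of them near 0, and 10 changed sign.

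With passage as a replicate block, edgeR called 2983 names lower and 2671 higher in RFs against 670 and 176 without it, with 1 residual degree of freedom per name; it added 94 calls among the named genes and removed none. DESeq2 called 998 and 586, edgeR without a filter on low counts 1007 and 302, with RLE scaling 561 and 159, and with the RF reads of entries summed 834 and 263. Leaving out 1 RF library at a time gave 0 to 632 lower and 0 to 153 higher. Without the passage 3 or the passage 4 Silvestrol library edgeR called none (1157 lower and 431 higher, or 1261 and 667, at an unadjusted p under 0.05), and without the passage 4 DMSO library 86 were higher; the lone library is then assumed to vary like the other group. The cause was not tested. Between 100 and 300 reads the counting interval reached a median of 0.47 to either side, against an SD of the change of 0.75; the source of the remaining spread was not tested.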

Other observations

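Of all single-entry members 4.44% were raised and 2.43% lowered, beside which the following counts stand. None of 27 DNA replication genes passed 2-fold (median -0.07), and of 28 mitosis genes CDC20 alone was lowered, while 21 stood above the median member and the list median was 0.34 (0.22 after the GC trend was removed, when CDC20, at -0.83, no longer passed). Of 30 cyclins and cyclin-dependent kinases 2 were raised (median 0.17), and none was after the GC trend was removed (median 0.11). None of 31 Mediator subunits (median -0.03), of 16 aminoacyl-tRNA synthetases (median 0.08) or of 33 TAF and general transcription factors (median 0.28) passed 2-fold, nor did any of 8 SOCS genes (median 0.07). Of 173 solute carriers 3 were raised and 4 lowered (median -0.17), and of 46 RAB GTPases 1 and 3 (median -0.08). In the list of mRNA decay and AU-rich element factors, 3 of 29 were raised (median 0.30), ZFP36 among them (1 raised and a median of 0.06 after the GC trend was removed), and among 12 BCL2 family genes MCL1, a survival factor with a short-lived mRNA, was the highest at 1.00 (0.86 after that step).

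Entries known by a GenBank accession alone were raised more often than others: 78 of 662 with a single entry (11.8%), and 10 lowered, against 444 and 259 of 11268 coding RefSeq entries. Of the 88 with a GC value 1 was raised and 0 lowered after the GC trend was removed, against 194 and 156 of 11243, so most of these entries could not be compared in that way. Their median level in DMSO was 1.93 RPKM against 10.4, and the part of that lower level in the count was not tested.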
